A study of Mus musculus with 4 samples.

Results

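The nuclear genes of respiratory complex I were examined in midbrain dopamine neurons, as the genes whose symbol starts with Nduf. Complex I is the NADH dehydrogenase of the inner mitochondrial membrane: its matrix arm takes electrons from NADH and passes them over iron-sulfur clusters to ubiquinone, and its membrane arm pumps protons. A core of conserved subunits does this work, part of it encoded in the nucleus and part in mitochondrial DNA, and many nuclear accessory subunits surround that core. Assembly factors build the complex without staying in it, and complex I is a long-standing subject of Parkinson's disease research because its inhibitors injure dopamine neurons. Members were the genes with a probe set that carries that symbol alone, and a gene with several was represented by its brightest, by mean log2 value across all 4 arrays. This gave 44 of 18193 genes. Ndufs6 and Ndufa11 had no such probe set and were not analysed here.

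RNA came from adult mice of both sexes, aged 6 to 12 weeks, of the Slc6a3 JD1640 TRAP line, in which a bacterial artificial chromosome with the Slc6a3 gene expresses the ribosomal protein RPL10A fused to EGFP in cells that use the dopamine transporter gene. The line was started on FVB, crossed to C57BL6/j and kept heterozygous for the transgene, which the mice of both fractions carried. TRAP RNA, the RNA on ribosomes captured through the tag, was measured on 2 arrays (replicates 2 and 4), and RNA of the whole midbrain, labelled unbound (total) and called input here, on 2 arrays (replicates 1 and 2). Each array held the RNA of a pool of 5 mice, so that p-values measure the spread between pools. Input was collected in parallel with TRAP, and the arrays numbered replicate 2 in both fractions may come from the same mice.

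Levels are given in arbitrary expression units, 2 raised to the deposited log2 value, and a probe set was taken as above background when both arrays of a fraction reached 50 units. Of the 44 genes, 42 were above background, 41 of them with 50 units or more on all 4 arrays. Ndufb1 passed only through TRAP. Ndufb4 (4.64 to 4.69 units) and Ndufa4l2 (4.58 to 4.59 units), a relative of Ndufa4 known from hypoxic cells, lay at the floor on every array and are not counted further. For Ndufb4 this holds for its 1 probe set with that symbol alone; probe sets that name it beside its copies were left out, so that its expression was not settled here. All 11 dopamine neuron markers were called higher in TRAP (adjusted p under 0.05 from limma), with a median log2 fold change of 4.90, and 4 were called with TRAP replicate 2 or TRAP replicate 4 left out. Th, the enzyme that makes the precursor of dopamine, was at 16613 and 20947 units in TRAP and 326.1 and 386.1 in input. The 13 oligodendrocyte markers, 0 of them with a positive log2 fold change, had summed levels of 85748 units (TRAP replicate 2), 37809 (TRAP replicate 4), and 106525 and 106125 in input. The 12 astrocyte markers summed to 32372 and 20158 units in TRAP and 49222 and 58686 in input. All 11 astrocyte, 6 microglia, 7 GABAergic neuron and 4 endothelial and mural markers above background had negative log2 fold changes. The 10 pan-neuronal markers summed to 80052 and 86668 units in TRAP and 67536 and 54179 in input, with a median log2 fold change of 0.74 and 0 called.

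Complex I genes were more abundant in TRAP than in input almost throughout. Of the 42 genes above background, 18 (42.9%) were called higher and 0 lower at an adjusted p under 0.05 from limma, against 18.7% higher and 6.87% lower of the 10014 genes above background chosen the same way. Ndufb1 had to differ to be counted, since it passed only through TRAP; among genes at 50 units or more on all 4 arrays, 17 of 41 members (41.5%) were called higher, against 17.2% of all 8513. At an unadjusted p under 0.05 from limma, 24 of the 42 were higher and 0 lower. The share of all genes at that unadjusted threshold was not counted, so that these numbers have no comparison. In 41 of the 42 genes (97.6%) both TRAP arrays lay above both input arrays, which held for 52.3% of all genes above background. Their median log2 fold change was 0.99, compared with 0.44 for all genes above background, and 39 of the 42 members lay over the latter. In bulk RNA of this kind, fewer cells of a type and less RNA per cell cannot be told apart. Among genes at 1000 units or more on all 4 arrays, 12 of 33 members (36.4%) were called higher, against 18.4% of all 2194 genes at that level, and all 33 members had both TRAP arrays above both input arrays, against 59.1%.

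The size of the difference depended on the scaling of the arrays. With each array centred on the median of the probe sets that reached 50 units on all 4 arrays, the median over all genes was 0.03 and that of the members 0.58, 19 members were called higher and 0 lower, and all genes were split evenly, 21.4% higher and 21.2% lower. After quantile normalization 10 members were called higher and 0 lower, with a median of 0.49, while 12.2% of all genes were higher and 10.2% lower. Without TRAP replicate 2, 6 members (14.3%) were called higher, against 7.78% of all genes, and without TRAP replicate 4, 5 (11.9%, against 7.38%). Without input replicate 1, 12 members (28.6%) were called higher, against 15.3% of all genes, and without input replicate 2, 11 (26.2%, against 13.9%). The median of the members stayed between 0.92 and 1.05. Of the 18 called genes, 2 (Ndufs3 and Ndufab1) were called whichever array was left out, and 5 lost their call each time. Log2 fold changes were positive for 41 members as deposited, 39 after centring and 38 after quantile normalization.

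**Figure D1:**
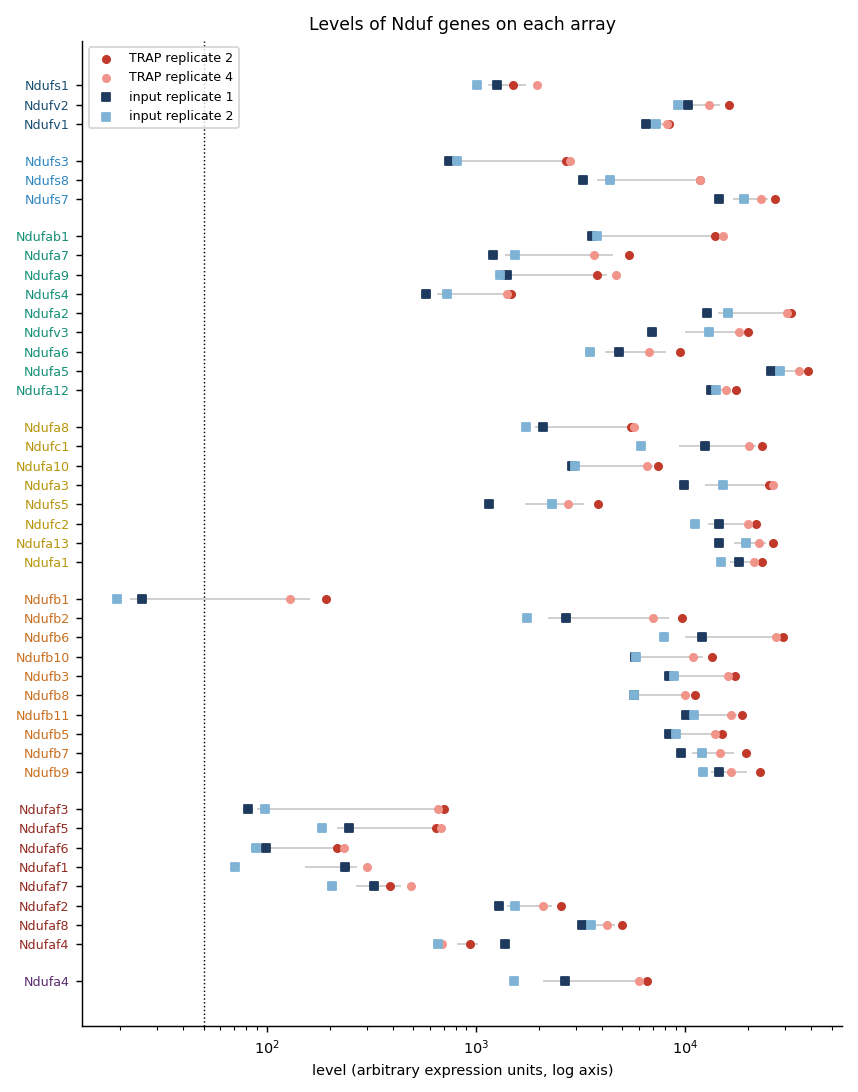
Level of each of the 42 Nduf genes above background on the 4 arrays, in arbitrary expression units on a log axis, grouped by role in the complex (colours of the gene names). Circles are TRAP arrays, squares input arrays, grey lines join the means of the 2 fractions and the dotted line marks 50 units; the circles lie to the right of the squares in every gene except Ndufaf4.

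None of the 3 core subunits on the NADH side passed the test, and 2 of 3 on the quinone side rose, against 18.7% of all genes above background. Ndufv1, which binds NADH and flavin, was at 8388 and 8173 units in TRAP and 6480 and 7242 in input (log2 fold change 0.27 with a standard error, SE, of 0.08; limma, adjusted p = 0.0876). Ndufv2, its iron-sulfur partner, was at 16247 and 12959 units in TRAP and 10319 and 9263 in input (log2 fold change 0.57, adjusted p = 0.0953). Ndufs1, the large subunit with several iron-sulfur clusters, was at 1510 and 1954 units in TRAP and 1261 and 1014 in input (log2 fold change 0.60, adjusted p = 0.140). In all 3 genes both TRAP arrays lay above both input arrays, as in 52.3% of all genes above background, yet the difference missed the threshold. For Ndufv1 the difference turned to -0.14 after centring and -0.26 after quantile normalization.

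Ndufs3 and Ndufs8, of the quinone-side core, were higher in TRAP. Ndufs3 was at 2683 and 2797 units in TRAP and 743 and 808.8 in input. Its means of 2740 ± 80.9 (SD, n = 2) and 775.9 ± 46.5 (SD, n = 2) units gave a 3.53-fold rise (log2 fold change 1.82 ± 0.06 SE, adjusted p = 0.00228 from limma). Ndufs8, which carries a pair of iron-sulfur clusters on the way to ubiquinone, was at 11746 and 11767 units in TRAP and 3231 and 4351 in input, a 3.14-fold rise (log2 fold change 1.65 ± 0.20 SE, adjusted p = 0.0244 from limma). Both TRAP arrays of these genes nearly coincided, and the spread came from the input arrays for Ndufs8, whose call was lost without TRAP replicate 2 (limma, adjusted p = 0.141) and without TRAP replicate 4 (adjusted p = 0.144). Ndufs7, which holds the last iron-sulfur cluster before ubiquinone, was at 26800 and 22899 units in TRAP and 14554 and 19129 in input (log2 fold change 0.57, adjusted p = 0.137), with no overlap but without a call. Whether the NADH side and the quinone side differ from each other was not tested.

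Of 9 accessory subunits of the matrix arm, 5 rose, against 18.7% of all genes above background. All 9 had both TRAP arrays above both input arrays, against 52.3% of all genes, and their median log2 fold change was 1.13. Ndufab1, the mitochondrial acyl carrier protein, was at 13914 and 15134 units in TRAP and 3591 and 3786 in input (3.94-fold, log2 fold change 1.98 ± 0.07 SE, adjusted p = 0.00213 from limma). Together with Ndufs3 it was called whichever of the 4 arrays was left out. Its other probe sets above background were not called, with log2 fold changes of 1.11 and, lower in TRAP, -4.49 (limma, adjusted p = 0.124 and 0.0621). With the mean of all its probe sets Ndufab1 turned to -0.53. Ndufa9, a subunit beside the quinone site, was at 3779 and 4643 units in TRAP and 1404 and 1300 in input (log2 fold change 1.63, adjusted p = 0.0143 from limma). Ndufa7 was at 5367 and 3642 units in TRAP and 1205 and 1536 in input (log2 fold change 1.70 ± 0.31 SE, adjusted p = 0.0493), and its call was lost whichever array was left out.

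Ndufs4, a subunit whose loss causes a mitochondrial encephalopathy in mice and people, was at 1472 and 1410 units in TRAP and 573.8 and 724.7 in input (2.23-fold, adjusted p = 0.0306). Ndufa2 was at 31871 and 30610 units in TRAP and 12643 and 16011 in input (log2 fold change 1.13, adjusted p = 0.0324). In the probe sets taken, the TRAP arrays of both genes were close to each other and clear of the input arrays. Neither call held in every fit with 1 array left out. The other Ndufs4 probe sets above background were not called, with log2 fold changes of 1.8 and, where the fractions overlapped, 0.59. In the probe sets taken, Ndufv3, Ndufa6, Ndufa5 and Ndufa12 had log2 fold changes of 0.99, 0.96, 0.44 and 0.27 and did not pass. Another probe set of Ndufa5 (log2 fold change 1.20) and another of Ndufa12 (1.075) were called higher (limma, adjusted p = 0.032 and 0.0295). A further Ndufa12 probe set above background had 0.53 and was not called. Ndufa5 was at 38493 and 34807 units in TRAP and 25739 and 28243 in input. Ndufa12, in the probe set taken, was at 17477 and 15562 units in TRAP and 13328 and 14012 in input. That difference turned to -0.14 after centring and -0.19 after quantile normalization.

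Accessory subunits of the membrane arm had similar values. Of 18 above background, 8 were called higher (1 of them Ndufb1), against 18.7% of all genes above background. All 18 had both TRAP arrays above both input arrays, against 52.3% of all genes. Their median log2 fold change was 0.97, beside 0.99 for all 15 matrix-arm subunits. Ndufa8, a subunit on the intermembrane face, was at 5524 and 5661 units in TRAP and 2099 and 1740 in input (2.93-fold, log2 fold change 1.55 ± 0.13 SE, adjusted p = 0.0119 from limma). Ndufa10, which resembles a nucleoside kinase, was at 7365 and 6590 units in TRAP and 2871 and 2960 in input (2.39-fold, adjusted p = 0.00692). Its other probe set above background overlapped between the fractions (log2 fold change 0.43, adjusted p = 0.308 from limma). With the mean of all its probe sets Ndufa10 had 0.84 and was not called (limma, adjusted p = 0.0607). Ndufc1 was at 23244 and 20089 units in TRAP but 12468 and 6159 in input, so that its log2 fold change of 1.30 had a standard error of 0.48 and did not pass (adjusted p = 0.137). Ndufa3, at 25063 and 26123 units in TRAP and 9875 and 15071 in input, and Ndufs5, at 3822 and 2742 in TRAP and 1148 and 2296 in input, did not pass either (limma, adjusted p = 0.0852 and 0.223). Ndufa1, which is X-linked, had a log2 fold change of 0.44 (adjusted p = 0.111). Ndufa13, also known as Grim19, and Ndufc2 had 0.53 and 0.72 and did not pass.

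Among the 10 beta subunits above background, the block of the membrane arm at its distal end, 6 were called higher and 4 did not pass. Of the 9 at 50 units or more on all 4 arrays, 5 rose. The shares called higher over all genes were 18.7% above background and 17.2% at 50 units or more on all 4 arrays. Ndufb1 was at 191.4 and 129.5 units in TRAP and below background in input (25.5 and 19.2 units), a TRAP level at least 3.21-fold higher. Ndufb10 was at 13430 and 10866 units in TRAP and 5725 and 5783 in input (2.10-fold, adjusted p = 0.0289), and Ndufb3 at 17281 and 15911 in TRAP and 8342 and 8786 in input (1.94-fold, adjusted p = 0.00851). These differences were wider than the gaps between the arrays of a fraction, but the calls of Ndufb1 and Ndufb3 were lost whichever array was left out. Ndufb8 was at 11064 and 9979 units in TRAP and 5674 and 5670 in input (1.85-fold, adjusted p = 0.0108). Ndufb11, also X-linked, was at 18638 and 16540 units in TRAP and 10094 and 11011 in input (1.67-fold, adjusted p = 0.0296). Ndufb5 was at 14938 and 13892 units in TRAP and 8378 and 9068 in input (1.65-fold, adjusted p = 0.0170). Both calls were lost after centring and whichever array was left out. In the probe sets taken, Ndufb2 and Ndufb6 differed more, with log2 fold changes of 1.93 and 1.53, but missed the threshold narrowly (limma, adjusted p = 0.0515 and 0.0512). Ndufb2 was at 9657 and 7023 units in TRAP and 2682 and 1751 in input, and Ndufb6 at 29221 and 27006 in TRAP and 11991 and 7939 in input. Another probe set of each was called higher, with log2 fold changes of 2.73 and 1.19 (limma, adjusted p = 0.0293 and 0.0336). A further Ndufb2 probe set was called lower (-2.18, limma, adjusted p = 0.0154). Ndufb7 and Ndufb9 had 0.65 and 0.55.

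**Figure D2:**
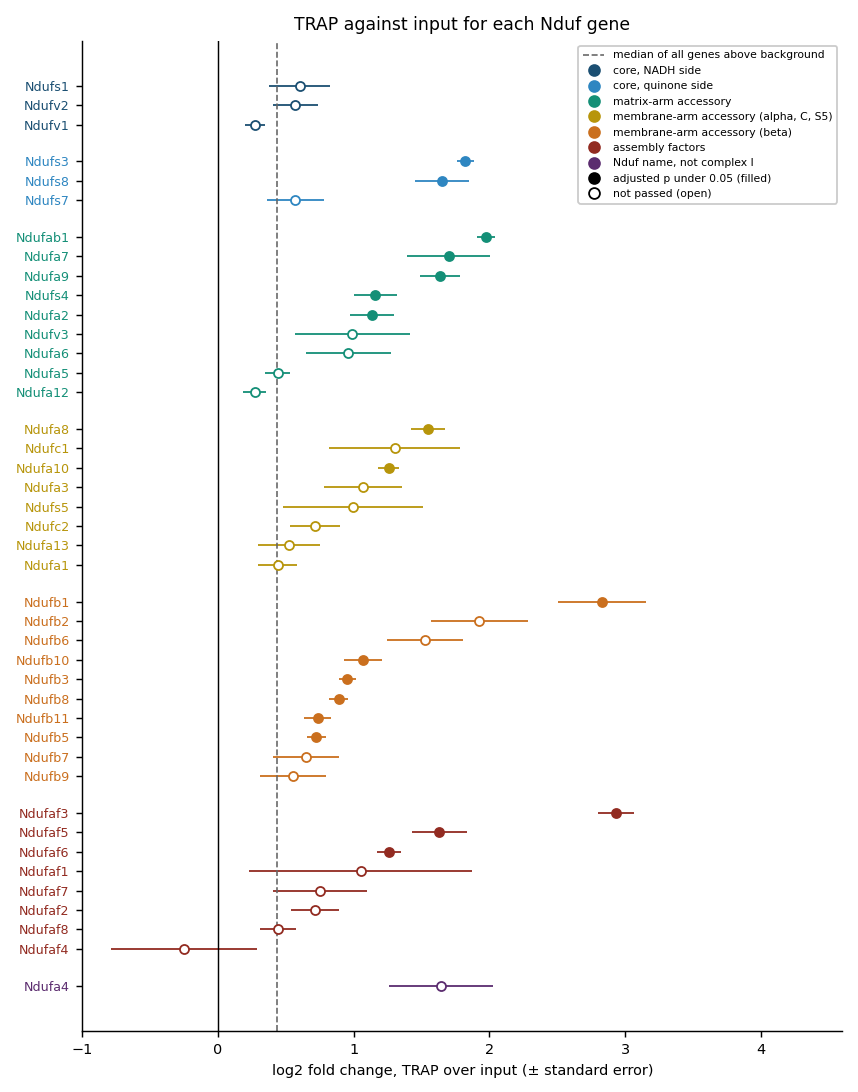
TRAP over input, as log2 fold change with its standard error, for the 42 Nduf genes above background, by role; filled points passed an adjusted p under 0.05 from limma. The dashed line is the median of all genes above background, 0.44, and every point except Ndufaf4 lies to the right of 0.

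Assembly factors ranged widely. Of 8 above background, 3 rose, against 18.7% of all genes above background, and the median log2 fold change of the 8 was 0.90. Ndufaf3, which acts with Ndufaf4 early in assembly, was at 702.5 and 659.0 units in TRAP and 81.2 and 98.0 in input, a 7.63-fold rise (log2 fold change 2.93 ± 0.13 SE, adjusted p = 0.00386 from limma) and the highest fitted value among members above background. Its partner Ndufaf4 was at 935.2 and 686.8 units in TRAP and 1379 and 656.6 in input, so that the fractions overlapped (log2 fold change -0.25 ± 0.54 SE, adjusted p = 0.720). Among the 42 members it alone had a negative value, which changed to 0.29 without input replicate 1 and to 0.25 with the mean of all its probe sets.

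Ndufaf5, an enzyme that hydroxylates Ndufs7, was at 643.5 and 678.8 units in TRAP and 247.9 and 184.1 in input (3.09-fold, adjusted p = 0.0257 from limma). Ndufaf6 was at 216.7 and 233.2 units in TRAP and 98.9 and 89.0 in input (2.40-fold, adjusted p = 0.00835). Both sets of TRAP arrays were tight and well clear of input, but the calls of Ndufaf5 and Ndufaf6 did not hold in every fit with 1 array left out. Ndufaf1, a factor for building the membrane arm, was at 236.9 and 302.2 units in TRAP and 235.4 and 70.8 in input, where input replicate 1 lay just below the lower TRAP array (log2 fold change 1.05 ± 0.82 SE, adjusted p = 0.366). Ndufaf7, a methyltransferase, was at 387.9 and 487.3 units in TRAP and 326.3 and 204.9 in input (log2 fold change 0.75, adjusted p = 0.191). Ndufaf2, a late factor that resembles Ndufa12, was at 2547 and 2090 units in TRAP and 1292 and 1529 in input (log2 fold change 0.72, adjusted p = 0.0815). Ndufaf8, the partner of Ndufaf5, was at 5003 and 4206 units in TRAP and 3215 and 3553 in input (log2 fold change 0.44, adjusted p = 0.101), and it turned to -0.08 after quantile normalization.

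Ndufa4 carries the family's name but is now counted as a subunit of cytochrome c oxidase. It was at 6571 and 6005 units in TRAP and 2663 and 1516 in input (log2 fold change 1.64 ± 0.38 SE, adjusted p = 0.0756 from limma). The TRAP arrays lay above both input arrays, which differed from each other more than the TRAP arrays did.

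The replicates of a fraction differed in different ways. TRAP replicate 2 exceeded replicate 4 in 31 of the 42 genes, by a median of 0.14 log2 units (range -0.37 to 0.56), and 0 genes differed 2-fold. Oligodendrocyte markers above background differed between the same arrays by a median of 1.46 in the same direction, GABAergic neuron markers by 1.25 and dopamine neuron markers by -0.33. The part of these cells in the complex I values was not tested; without TRAP replicate 2, the median of the members was 0.92. Between the input arrays the median difference was -0.06, but single genes reached 1.73 (Ndufaf1), and 4 genes, Ndufaf1, Ndufaf4, Ndufc1 and Ndufs5, differed 2-fold or more.

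Probe sets of a gene did not give the same size of difference. Of 88 probe sets with an Nduf symbol alone, 77 were above background, 74 of them with a positive log2 fold change, 33 (42.9%) called higher and 1 lower, against 19.2% higher and 8.15% lower of all 15532 probe sets above background with 1 symbol. For 21 genes more than 1 was above background, and in 15 of these the probe set that stood for the gene had a smaller log2 fold change than the median of the gene's others. The same held for 61.0% of all 3711 genes with several probe sets above background. In these 21 genes the median was 0.72 for the probe sets taken and 1.19 for the others. For Ndufc2 the probe set taken gave 0.72 and the others 1.94 and 2.27, both called (adjusted p = 0.0454 and 0.0351 from limma). For Ndufv1 the 3 probe sets gave 0.27, 0.55 and 0.75, of which the middle one was called (adjusted p = 0.0334).

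A pair of genes had a probe set that ran the other way. For Ndufab1 another probe set was at 22.9 and 6.37 units in TRAP and 353.4 and 208.1 in input (at least 5.62-fold lower against a TRAP level of 50 units, limma, adjusted p = 0.0621), and with the mean of all its probe sets Ndufab1 turned to -0.53. For Ndufb2 a probe set was at 14.4 units on both TRAP arrays and at 75.8 and 55.8 in input, and it was the 1 called lower, by at least 1.32-fold (limma, adjusted p = 0.0154). The part of the transcript that these probe sets read was not analysed here. Among the probe sets taken, those of Ndufa13, Ndufa2, Ndufab1, Ndufaf7 and Ndufc2 carry a name ending in s, given where probes match several transcripts, and those of Ndufa12, Ndufb11, Ndufs4 and Ndufv1 one ending in x, given where probes may bind other transcripts. Copies and relatives of these genes cannot be told apart in their values.

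**Figure D3:**
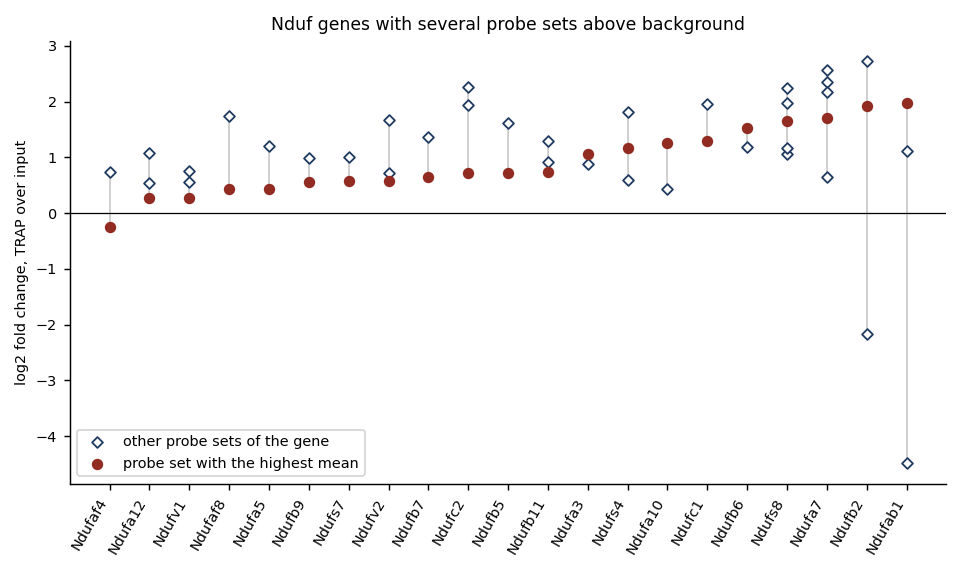
Log2 fold change, TRAP over input, of the probe sets above background of the 21 Nduf genes with more than 1. Filled circles are the probe sets with the highest mean, which stand for the gene in the other plots, and open diamonds are the others; the circle is the lowest point in 13 genes, and diamonds below 0 belong to Ndufab1 and Ndufb2.

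Other genes of complex I biology were measured for comparison. Of the core subunits encoded in mitochondrial DNA, only ND5 was matched. It was at 246 and 431.1 units in TRAP and 12892 and 21709 in input, a log2 fold change of -5.68 (adjusted p = 0.0143 from limma), opposite in sign to each of the 33 Nduf subunits above background. The call was lost whichever array was left out, with values from -6.09 to -5.28. ND5 is translated by the ribosomes of the mitochondrion itself. Of 10 assembly factors with other names above background, 5 rose and 0 fell, with a median log2 fold change of 1.55; with TRAP replicate 2 or TRAP replicate 4 left out, 2 were called. Of all genes above background, 18.7% were called higher and 6.87% lower on the 4 arrays. Tmem126a, which helps to build the membrane arm, was at 1934 and 2153 units in TRAP and 560.7 and 503.4 in input (log2 fold change 1.94, adjusted p = 0.00510 from limma). Dmac1, a factor for the distal membrane arm, was at 3502 and 3391 units in TRAP and 710.9 and 695.3 in input (log2 fold change 2.29, adjusted p = 0.000266). Dmac2, Ecsit and Tmem186 also rose, with log2 fold changes of 1.26, 1.16 and 1.62. Acad9, a partner of Ecsit, was the 1 factor with a negative value (-0.53, adjusted p = 0.185).

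Genes that regulate respiratory gene expression did not move together. Of 9 above background, 1 rose and 2 fell, while 18.7% of all genes above background rose and 6.87% fell. The median log2 fold change of the 9, 0.19, turned to -0.20 after quantile normalization and -0.22 after centring. With TRAP replicate 2 or TRAP replicate 4 left out, 0 were called in either direction. Tfb1m, a mitochondrial ribosomal RNA methyltransferase, rose (log2 fold change 1.67, adjusted p = 0.0137 from limma), and Gabpa, an ETS factor that binds promoters of respiratory genes, and Ppargc1b, a coactivator, fell (-0.79, adjusted p = 0.0160, and -1.57, adjusted p = 0.0359). Ppargc1a, the best known coactivator of mitochondrial biogenesis, was at 2439 and 1885 units in TRAP and 4089 and 2704 in input (-0.63, adjusted p = 0.223).

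The other respiratory complexes had similar values. Of 36 subunits of complexes II to V above background, 19 (52.8%) were called higher and 0 lower. The shares over all genes above background were 18.7% higher and 6.87% lower. The median log2 fold change of the 36 was 0.97, beside 15 of 33 Nduf subunits called higher with a median of 0.99. With 1 array left out, 7 or 8 of the 36 were called higher, and after quantile normalization 6 were higher and 2 lower. Of all genes above background, 12.2% were higher and 10.2% lower after quantile normalization. With values under 50 units raised to 50, 2 of the 36 were called higher, against 4.44% of all genes. By complex the medians were 1.64 over 4 genes of complex II, 1.07 over 9 of complex III, 0.67 over 8 of complex IV and 1.10 over 15 of complex V. Of 13 cytosolic ribosomal protein genes above background, 2 rose and 0 fell, with a median of 0.57, which was 0.16 after centring and 0.037 after quantile normalization; with TRAP replicate 2 or TRAP replicate 4 left out, 0 were called. The ribosomal count of 2 of 13 was not above the share of all genes called higher, 18.7%. These lists are set side by side without a test between them.

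**Figure D4:**
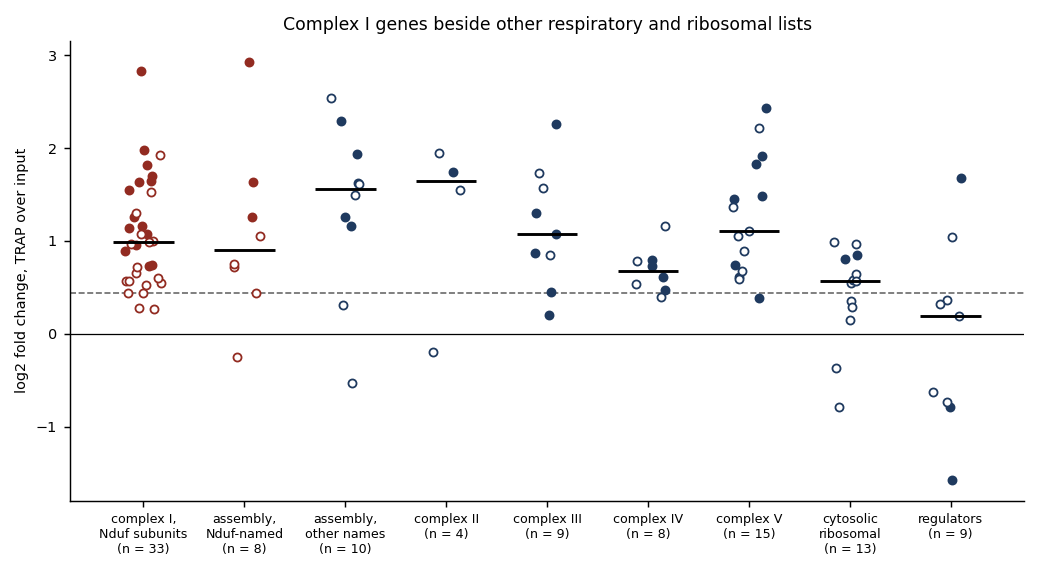
Each point is the log2 fold change (TRAP over input) of a gene above background in the lists of Nduf genes (red) and of other respiratory, ribosomal and regulatory genes (blue); filled points passed an adjusted p under 0.05 from limma, short lines are medians and the dashed line is the median of all genes above background, 0.44. ND5, at -5.68, is not drawn, and the medians run from 0.19 for the regulators to 1.64 for complex II.

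Promoters were searched because most of these genes had positive log2 fold changes. For 39 of the 44 genes RefSeq (GRCm38.p6) gave the stretch from 250 bases before to 50 after the transcript start. On either strand, GCGCATGCG, a core of the NRF1 site, was found for 3 of the 39 genes (7.69%) and 1.95% of all 27025 genes. Those 27025 are all genes with such a stretch and were not limited to genes above background, unlike the comparisons of levels. CCGGAAG, a core of ETS sites such as that of Gabpa, was found for 6 (15.4%, against 9.93%), and AAGATGGCG, a core of the YY1 site, for 5 (12.8%, against 1.64%). In all 5 the YY1 match lay in the 50 bases after the start and not before it, while most NRF1 and ETS matches lay before it. None of these strings holds another, though the ETS string ends in the letters with which the YY1 string starts. At least 1 of them was found for 6 of 16 called genes and for 7 of 22 genes above background that were not called. The 250 bases before the start of a called subunit of each arm, Ndufa8 and Ndufs3, are shown with matches in capitals, on the minus strand of chr2:36049339-36049588 and chr2:90904722-90904971. The match for Ndufa8 is the reverse complement of the NRF1 string, CGCATGCGC, and ends at the start itself, and that for Ndufs3 is the ETS string. Ndufs3 has another ETS match, on the opposite strand, in the 50 bases after the start, which are not shown.
Ndufa8: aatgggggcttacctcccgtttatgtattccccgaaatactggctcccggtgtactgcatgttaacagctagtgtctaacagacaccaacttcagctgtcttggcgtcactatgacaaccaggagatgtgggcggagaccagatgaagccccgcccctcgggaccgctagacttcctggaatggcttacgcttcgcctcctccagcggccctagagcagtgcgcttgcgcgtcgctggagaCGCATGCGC
Ndufs3: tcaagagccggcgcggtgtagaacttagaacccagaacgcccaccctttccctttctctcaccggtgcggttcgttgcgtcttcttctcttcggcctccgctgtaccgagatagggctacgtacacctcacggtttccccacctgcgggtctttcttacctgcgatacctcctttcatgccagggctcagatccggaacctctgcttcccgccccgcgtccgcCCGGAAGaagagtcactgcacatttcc
A match describes these letters and is not shown to be a binding site, and no match says only that the letters are not in this stretch.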

How the data were processed

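RNA was amplified over 2 cycles and hybridized to Affymetrix mouse genome arrays, and the authors processed the arrays with GCRMA (version not given in the sources used here). Their deposited log2 values, 1 for each probe set of an array, were used without further normalization. After 64 control probe sets were left out, 45037 of 45101 were fitted with limma 3.58.1 in R 4.3.3 (lmFit and eBayes, 2-sided), TRAP against input, calling an adjusted p (Benjamini-Hochberg over all probe sets) under 0.05. There were 2 residual degrees of freedom and 0.317 from the prior. The number of arrays limits the precision. Symbols came from the platform's annotation, and 10 probe sets that name an Nduf gene beside another gene were left out. Members, lists and named genes were chosen with earlier results of these data known. Members could all be named, with array values for core subunits, assembly factors, Ndufa4, called members and the 5 highest and 5 lowest fold changes; of other lists, called genes and up to 3 of the brightest were named, and Th. Values of Ndufc1, Ndufa3, Ndufs5 and Ndufb6, and probe sets that disagree, were added after their values were seen. Role groups follow the known structure of the complex. The fit was checked on simulated data. Folds against a fraction below 50 units use 50 units. Alternatives were other scalings, fits and probe set rules, and each array left out.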

Additional observations from a re-analysis of the deposited data

How the results depend on the processing

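The 18 Nduf genes called higher (42.9%, against 18.7% of all genes) became 10 after quantile normalization (23.8%, against 12.2%), 4 with values under 50 units raised to 50 (9.52%, against 4.44%), 6 at an adjusted p under 0.01 (14.3%, against 5.25%), and 5 to 12 with 1 array left out. Of the 18, 2 (Ndufab1 and Ndufs3) were called whichever array was left out and 5 in none of these fits. With values raised to 50, limma warned that most residual variances over all probe sets were 0. The count was 19 after centring (all genes 21.4%), 19 in a fit of probe sets above background (22.7%), 21 with an intensity trend (25.6%), 20 with each gene's mean over its probe sets (19.5%), 14 with a 2-fold minimum (14.4%) and 18 with a background of 100 units (18.7%). It was 23 with the mean of probe sets above background (28.8%), an alternative chosen after seeing the data. In each of these 0 were called lower. The median log2 fold change moved from 0.99 to 0.49 after quantile normalization and 0.58 after centring. It was 0.45 and 0.56 above the median of all genes, beside 0.56 without either.

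Reversals were Ndufa12 (-0.19 after quantile normalization and -0.14 after centring), Ndufv1 (-0.26 and -0.14), Ndufaf8 (-0.084 after quantile normalization), Ndufab1 (-0.53 with the mean of all probe sets and -0.47 with those above background) and Ndufaf4 (0.25 with either mean, and -0.78 to 0.29 with 1 array left out, the latter without input replicate 1). The median of the regulators turned to -0.20 after quantile normalization, -0.22 after centring, and lay between -0.29 (without input replicate 1) and 0.09 with 1 array left out, at -0.021 without TRAP replicate 2. The cause was not tested. No paired analysis was possible because the TRAP arrays (replicates 2 and 4) and the input arrays (replicates 1 and 2) share 1 replicate number.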
